A study of Mus musculus with 17 samples.

Results

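Chemokines are small proteins that guide the movement of leukocytes. Expression of 9 chemokine genes that epithelial cells of the lung can make was measured in alveolar type 2 (AT2) cells, which line the alveolus and make surfactant. The genes were taken by symbol: Cxcl1, Cxcl2, Cxcl5, Cxcl10, Cxcl16, Cxcl17, Cx3cl1, Ccl2 and Ccl20. They are 9 of the 43430 gene IDs counted, and all 9 were found in both count tables.

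AT2 cells were sorted by flow cytometry from C57BL/6J mice aged 2 months and sequenced as 17 libraries. In the first experiment, 4 vehicle and 4 ISRIB libraries were made 24 h after treatment of naive mice, from 3 ng of RNA with poly(A) selection (NEBNext Ultra kit). ISRIB is a small molecule that inhibits the integrated stress response. In the second, 4 naive libraries and 5 libraries from mice 14 days after bleomycin, a drug that injures the lung, were made from 0.35 ng of RNA with a total-RNA kit (SMARTer Stranded Total RNA-Seq v2 Pico). All 9 of these samples, naive and bleomycin alike, are also labelled as vehicle-treated. Doses were not among the labels. Libraries are named by group and by the replicate number in their titles. The labels do not say that each library came from a separate mouse, so p-values measure only the spread between these libraries. Levels were not compared between the kits.

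Chemokines act on receptors on the surface of leukocytes and are named by the spacing of their first cysteines (CXC, CC and CX3C). Epithelial cells make some of them at rest and induce others when toll-like, interleukin-1, tumour necrosis factor or interferon receptors are engaged, largely through NF-kappaB and interferon-activated transcription factors. Most are secreted. CXCL16 and CX3CL1 are made as membrane-anchored proteins whose ectodomains the proteases ADAM10 and ADAM17 can release.

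Library totals ran from 10493574 to 15727139 counts in the poly(A) set and from 3295257 to 6333166 in the libraries of the second experiment, so genes with few reads had fewer still there. Ribosomal-RNA-like genes took 15.7% to 29.2% of the total-RNA counts. Markers supported the cell type on the label: the summed level of 10 AT2 markers was at least 53566 CPM (counts per 1000000 counts, with library totals scaled by TMM) in every library. It was 89937 to 99181 CPM in the naive libraries and 53566 to 100329 CPM in the bleomycin libraries, where bleomycin 1 (53566 CPM) and bleomycin 2 (63192 CPM) were lowest. In bulk RNA, fewer cells of a type and less RNA per cell cannot be told apart.

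A promoter sequence was matched in RefSeq (GRCm38.p6) for 5 of the 9 members, Cxcl1, Cxcl2, Cxcl10, Ccl20 and Cx3cl1. For Cxcl5, Cxcl16, Cxcl17 and Ccl2 no sequence was matched. The first 4 are shown, because among the matched members they are best known as inducible. None of these 4 exceeded 3.97 CPM in any of the 17 libraries. Each is the part of the 250 bases before the RefSeq start that lies in no annotated exon, written 5′ to 3′ on the gene's strand: Cxcl1 at chr5:90890995-90891240 (plus), Cxcl2 at chr5:90903649-90903870 (plus), Cxcl10 at chr5:92348890-92349139 (minus) and Ccl20 at chr1:83116516-83116765 (plus). Capitals mark matches, on either strand, to an NF-kappaB-type motif (GGG, any 3 bases, TTCC) or an ISRE-type motif (GAAA, any 2 bases, GAAA), with overlapping matches joined.
Cxcl1: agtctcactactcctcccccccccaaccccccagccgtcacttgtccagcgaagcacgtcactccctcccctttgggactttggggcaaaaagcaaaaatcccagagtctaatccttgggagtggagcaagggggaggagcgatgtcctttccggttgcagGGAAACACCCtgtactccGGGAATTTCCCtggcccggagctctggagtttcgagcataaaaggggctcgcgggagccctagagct
Cxcl2: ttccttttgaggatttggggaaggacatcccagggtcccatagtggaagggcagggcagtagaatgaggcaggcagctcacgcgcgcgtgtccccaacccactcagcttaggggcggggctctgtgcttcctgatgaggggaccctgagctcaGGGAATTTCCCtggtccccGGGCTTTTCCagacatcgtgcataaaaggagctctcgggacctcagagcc
Cxcl10: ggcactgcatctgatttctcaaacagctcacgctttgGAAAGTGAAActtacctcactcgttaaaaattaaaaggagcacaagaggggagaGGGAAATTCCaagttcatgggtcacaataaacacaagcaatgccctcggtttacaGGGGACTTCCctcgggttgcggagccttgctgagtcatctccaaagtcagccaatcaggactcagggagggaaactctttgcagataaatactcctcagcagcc
Ccl20: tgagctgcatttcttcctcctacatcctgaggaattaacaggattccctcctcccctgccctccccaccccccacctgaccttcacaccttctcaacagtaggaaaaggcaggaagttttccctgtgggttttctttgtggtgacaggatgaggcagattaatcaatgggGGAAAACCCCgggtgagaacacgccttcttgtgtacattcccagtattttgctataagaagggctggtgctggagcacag

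The NF-kappaB-type letters occurred in all 4 stretches, with separate runs in Cxcl1, Cxcl2 and Cxcl10 and a single run (GGAAAACCCC) in Ccl20. The ISRE-type letters occurred only in Cxcl10 (GAAAGTGAAA). For Cx3cl1, whose sequence is not shown, a match to neither motif was found. Of 32851 promoter windows of 250 bases, 4.65% held the NF-kappaB-type letters and 2.98% the ISRE-type letters. A match is a description of the letters and shows no binding.

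Of the 9 genes, 3 made up nearly all of the chemokine counts in every library. Cxcl16, Cxcl17 and Cx3cl1 together took 93.3% to 97.8% of the summed CPM of the 9 genes across the 17 libraries. To compare genes with each other, CPM was divided by the length of the gene's annotated exons in kilobases. In the vehicle libraries Cxcl17 was highest at 37.8 ± 0.96 CPM per kb (SD, n = 4), followed by Cxcl16 at 16.3 ± 0.78 and Cx3cl1 at 4.67 ± 0.40, and the ranges of these 3 did not overlap. Cxcl1 came next at 1.00 ± 0.52 CPM per kb, Cxcl5 at 0.57 ± 0.13, Cxcl2 at 0.33 ± 0.16 and Ccl20 at 0.30 ± 0.16, and each overlapped its neighbour in this order. The annotated exons of Cxcl1, Cxcl2 and Cxcl10 include retained introns, which lengthens them and lowers their values per kb. In the ISRIB libraries the same 3 genes led in the same order, without overlap.

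In the total-RNA set the ranges of the top genes overlapped. In the naive libraries Cxcl16 (16.4 ± 1.69 CPM per kb) and Cxcl17 (14.0 ± 4.73) could not be ordered, and Cx3cl1 followed at 1.68 ± 0.29 (SD, n = 4). In the bleomycin libraries Cxcl17 was at 33.1 ± 13.1 and Cxcl16 at 20.004 ± 2.17 CPM per kb, again with overlapping ranges, and Cx3cl1 at 4.53 ± 1.59 (SD, n = 5). Summed over the 9 genes, the level was 59.0 to 82.0 CPM in the naive and 94.2 to 128 CPM in the bleomycin libraries.

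**Figure D1:**
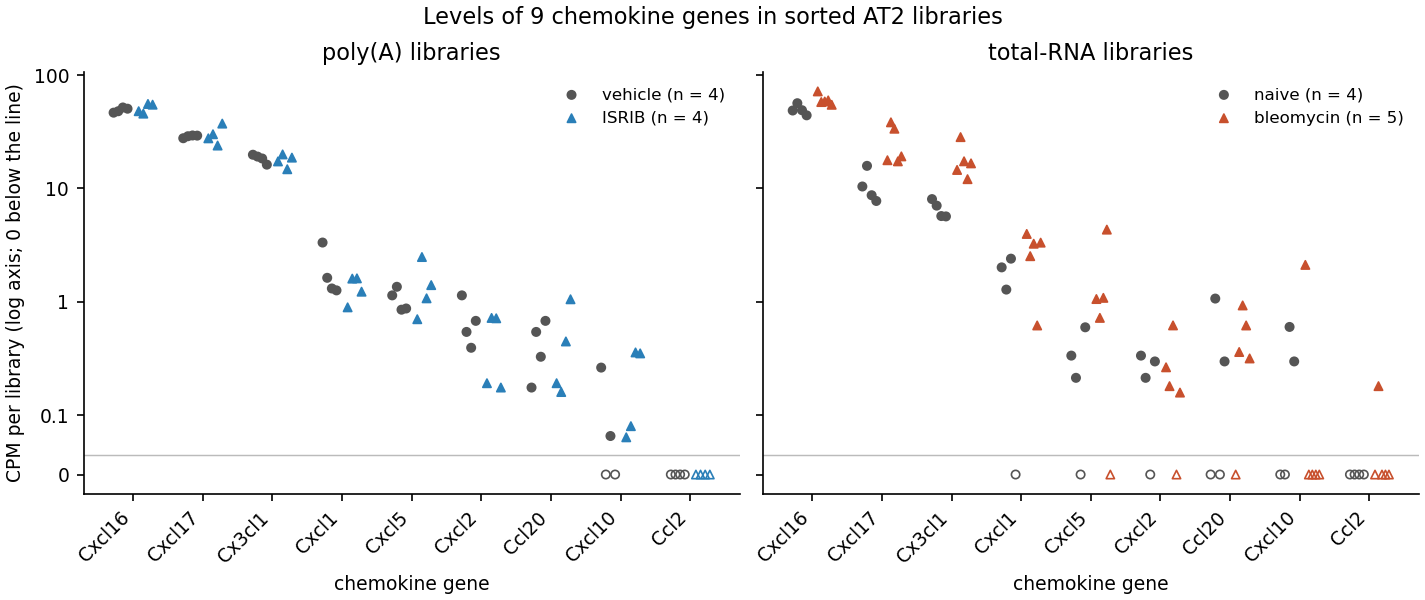
CPM of each of the 9 chemokine genes in each library, on a log axis, for the poly(A) set (vehicle and ISRIB, 4 libraries each) and the total-RNA set (4 naive and 5 bleomycin libraries); open symbols below the line are libraries with 0 counts. Cxcl16, Cxcl17 and Cx3cl1 stand above the other 6 genes in all 17 libraries, and Ccl2 has a single count, in bleomycin 2.

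The comparison of bleomycin with naive asked how AT2 cells differed 14 days after lung injury. Cx3cl1 and Cxcl17 rose, by 2.70-fold and 2.35-fold, while Cxcl16 and Cxcl1 did not pass the test. A gene was tested with edgeR's quasi-likelihood test if it had enough counts, and called at a Benjamini-Hochberg adjusted p under 0.05 over all genes tested. Of the 9 chemokine genes 4 were tested, and 2 of these were called, both higher, against 20.5% of the 11223 genes tested (11.2% higher and 9.31% lower). The groups did not overlap for those 2 genes, as for 19.7% of all genes tested. Cxcl1 entered the test only through the bleomycin group, where 4 libraries and no naive library reached the filter's level of 2.57 CPM. Here and below, that level is counted on raw library totals, so bleomycin 2 reached it though its TMM-scaled level was 2.53 CPM. The other 3 reached it in all 9 libraries.

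Cx3cl1 (ENSMUSG00000031778, GRCm38 chromosome 8, 94772009 to 94782427, plus strand) encodes fractalkine, the ligand of CX3CR1 on monocytes and macrophages. It was at 8.05, 7.05, 5.70 and 5.66 CPM in naive 1 to 4 and at 14.5, 28.3, 17.3, 12.1 and 16.6 CPM in bleomycin 1 to 5. All 5 bleomycin libraries lay above all 4 naive libraries, and bleomycin 2 stood highest. The means were 6.62 ± 1.15 (SD, n = 4) and 17.8 ± 6.24 CPM (SD, n = 5). The log2 fold change was 1.43 (SE 0.27, edgeR adjusted p 0.00112).

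Cxcl17 (ENSMUSG00000060188, chromosome 7, 25400053 to 25412886, minus strand) encodes a chemokine of mucosal surfaces. Its level was 10.4, 15.8, 8.71 and 7.75 CPM in naive 1 to 4 and 17.7, 38.3, 33.6, 17.3 and 19.2 CPM in bleomycin 1 to 5. The groups were separated by a narrow gap, between naive 2 and bleomycin 4, and bleomycin 2 and 3 were about as high as each other and above the other 3. The means were 10.7 ± 3.60 (SD, n = 4) and 25.2 ± 9.94 CPM (SD, n = 5). The log2 fold change was 1.23 (SE 0.29, edgeR adjusted p 0.00494).

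Cxcl16 (ENSMUSG00000018920, chromosome 11, 70453983 to 70459984, minus strand) encodes the membrane-anchored ligand of CXCR6 on T cells. Its level was 48.6, 56.4, 48.9 and 44.1 CPM in naive 1 to 4 and 71.7, 57.7, 58.4, 59.7 and 54.6 CPM in bleomycin 1 to 5. The groups overlapped, since naive 2 lay above bleomycin 5. The log2 fold change was 0.28 (SE 0.13), with an unadjusted p of 0.0432 and an edgeR adjusted p of 0.135. Its exons overlap those of Zmynd15 on the opposite strand by 552 bases, and reads there cannot be told apart if the counting did not use strand. Zmynd15 itself was at 6.22 ± 2.16 CPM (SD, n = 4) in naive and 5.28 ± 2.29 CPM (SD, n = 5) in bleomycin libraries.

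**Figure D2:**
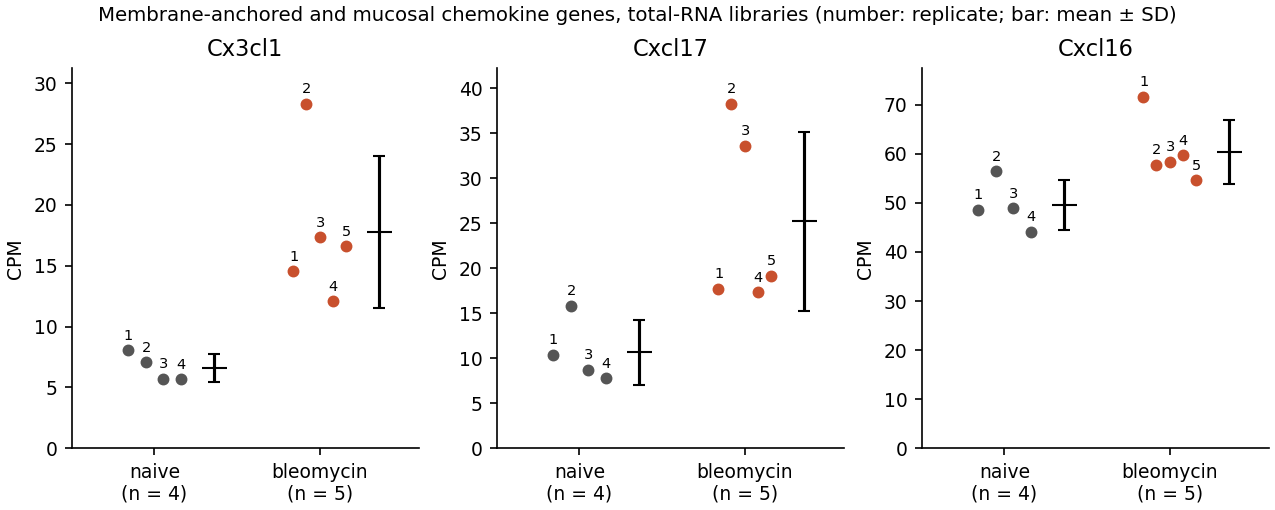
CPM of Cx3cl1, Cxcl17 and Cxcl16 in each naive (4) and bleomycin (5) library, with the replicate number beside each point and the group mean ± SD as bars. The bleomycin libraries lie above all naive libraries for Cx3cl1 (12.1 CPM or more against 8.05 or less) and Cxcl17 (17.3 or more against 15.8 or less), and overlap them for Cxcl16.

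The share of the 3 abundant genes within a library was compared as the ratio of their CPM. Cx3cl1 over Cxcl16 was 0.117 to 0.166 in naive and 0.202 to 0.491 in bleomycin libraries. The mean log2 ratio differed by 1.09 between the groups, with an exact two-sided permutation p of 0.0159 (smallest possible 0.00794, 4 against 5 libraries). Adjusted over the 6 ratios tested in both experiments this was 0.0952, which does not pass. For Cxcl17 over Cxcl16 the mean log2 ratio differed by 0.92 (exact permutation p 0.0397, adjusted 0.119). For Cx3cl1 over Cxcl17 it differed by 0.17 (exact permutation p 0.444, adjusted 0.72). These ratios were chosen after the values had been seen, and none of the 6 passed after adjustment.

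Cxcl1, Cxcl2 and Cxcl5 encode ligands of CXCR2 that attract neutrophils, and they lie with each other on chromosome 5. Cxcl1 (ENSMUSG00000029380, 90891241 to 90893115) was at 2.01, 1.28, 2.40 and 0 CPM in naive 1 to 4 and 3.97, 2.53, 3.25, 0.62 and 3.33 CPM in bleomycin 1 to 5. The groups overlapped through bleomycin 4, which was below 3 of the 4 naive libraries. The log2 fold change was 0.97 (SE 0.66, edgeR adjusted p 0.322), from 20 counts in all in naive and 73 in bleomycin libraries.

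Cxcl5 (ENSMUSG00000029371, 90759360 to 90761624) and Cxcl2 (ENSMUSG00000058427, 90903871 to 90905938) had too few counts for the test in the total-RNA set. Cxcl5 had 4 counts in all naive and 29 in all bleomycin libraries, a ratio of 4.32 after scaling to library totals (exact 95% Clopper-Pearson interval 1.52 to 16.9). Bleomycin 4 held 14 of the 29, and without it the ratio was 2.58 (0.82 to 10.7). Such intervals cover counting error only, not the spread between libraries. Cxcl2 had 3 and 7 counts, a ratio of 1.39 (0.32 to 8.33), so that no difference was detectable at this depth. Reads shared among these near relatives may have been lost or split in counting, which was not tested.

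Cxcl10 (ENSMUSG00000034855, chromosome 5, 92346638 to 92348889, minus strand) encodes an interferon-inducible ligand of CXCR3 on T and natural killer cells. It had 3 counts in the naive libraries and 8 in the bleomycin libraries, all 8 in bleomycin 1, a ratio of 1.59 (0.38 to 9.30). Ccl20 (ENSMUSG00000026166, chromosome 1, 83116766 to 83119167), which encodes the ligand of CCR6, had 6 and 12 counts, a ratio of 1.19 (0.41 to 3.87). Neither difference was larger than counting error. Ccl2 (ENSMUSG00000035385, chromosome 11, 82035571 to 82037453), which encodes a monocyte attractant acting on CCR2, had 0 counts in the naive and 1 in the bleomycin libraries. A count of 0 over the naive libraries allows a level of up to 0.204 CPM (3 counts over the group).

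**Figure D3:**
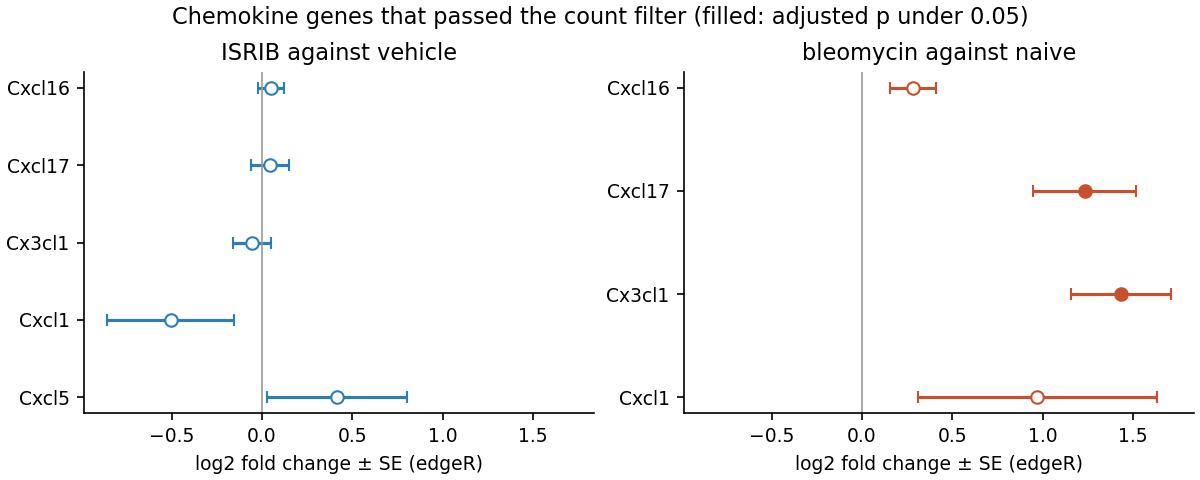
Log2 fold change with its SE from edgeR for the chemokine genes with enough counts to test, 5 in ISRIB against vehicle (left) and 4 in bleomycin against naive (right); filled points have an adjusted p under 0.05. Cx3cl1 (1.43) and Cxcl17 (1.23) after bleomycin are the filled points, and the 5 genes after ISRIB run from -0.50 to 0.41.

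Some markers of other cell types moved with the bleomycin group, and their part in the rise of Cx3cl1 and Cxcl17 was not tested. The ciliated-cell markers Foxj1 and Ccdc153 summed to 2.98 to 9.40 CPM in naive and 12.7 to 65.3 CPM in bleomycin libraries, highest in bleomycin 2 and next in bleomycin 1. Of 10 fibroblast markers 4 were tested, the matrix genes Col1a1, Col1a2, Col3a1 and Fn1. All 4 were called higher, against 11.2% of all genes tested. They were tested only because the bleomycin libraries were high, which favours a rise. The filter's level of 2.57 CPM was reached in 1, 0, 2 and 1 naive libraries and in 5, 4, 5 and 5 bleomycin libraries. The fibroblast list summed to 6.26 to 12.7 CPM in naive and 39.0 to 287 CPM in bleomycin libraries, again highest in bleomycin 2. These 4 genes carried the sum. Of the other markers, Pdgfra had means of 0.93 and 1.001 CPM, Pdgfrb 0.90 and 1.15 CPM and Tcf21 0.15 and 0 CPM. Lum was at 0 counts throughout. Dcn and Postn made up the rest of the list and are not given singly. The whole list and its 4 matrix genes summed to 12.6 and 9.61 CPM in naive 3, and to 287 and 279 CPM in bleomycin 2. The part outside the 4 genes was larger in bleomycin 1, 2, 3 and 5 than in any naive library, but not in bleomycin 4. Of 10 endothelial markers 6 were tested and 2 called higher, against 11.2% of all genes tested. Their sums were 22.9 to 33.5 CPM in naive and 27.8 to 87.7 CPM in bleomycin libraries. Airway markers as a whole, the list that includes Foxj1 and Ccdc153, summed to 450 to 913 CPM in naive libraries. In bleomycin libraries they summed to 494 to 954 CPM, an overlapping range. Of 7 tested 2 were called higher, against 11.2% of all genes tested. These 2 were the same Foxj1 and Ccdc153, and the other tested genes of the list were not called. The macrophage and monocyte list summed to 698 to 861 and 240 to 728 CPM, of which a single gene, Lyz1, made up nearly all. Lyz1 was the 1 gene of 5 tested that was called lower, against 9.31% of all genes tested. Without Lyz1 the list summed to 17.0 to 33.9 CPM in naive and 16.9 to 33.2 CPM in bleomycin libraries, with Marco and C1qa at 0 counts in all 9. Neutrophil markers summed to at most 1.80 CPM and lymphocyte markers to at most 1.68 CPM in any library of the set.

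Cx3cl1 and Cxcl17 were both highest in bleomycin 2, the library with the highest ciliated and fibroblast sums. Without bleomycin 2 the log2 fold change was 1.21 for Cx3cl1 (edgeR adjusted p 0.00266) and 1.04 for Cxcl17 (adjusted p 0.0123). Without bleomycin 1 and 2 together, an alternative chosen after seeing the data, it was 1.23 (adjusted p 0.00307) and 1.13 (adjusted p 0.00832). Bleomycin 3 had the lowest ciliated sum of its group, 12.7 CPM, and the second highest level of both genes. That sum was still above the highest naive sum, 9.40 CPM. The sum of Col1a1, Col1a2, Col3a1 and Fn1 was also lowest in bleomycin 3 within its group, at 35.5 CPM, against at most 11.1 CPM in naive libraries. The marker difference therefore remained without bleomycin 1 and 2, and its part in the change was not tested. Across all 17 libraries, the deviations of Cx3cl1 and Cxcl17 from their group means had a Pearson r of 0.75, given as a description, since genes of a library share its depth and its cell mixture.

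**Figure D4:**
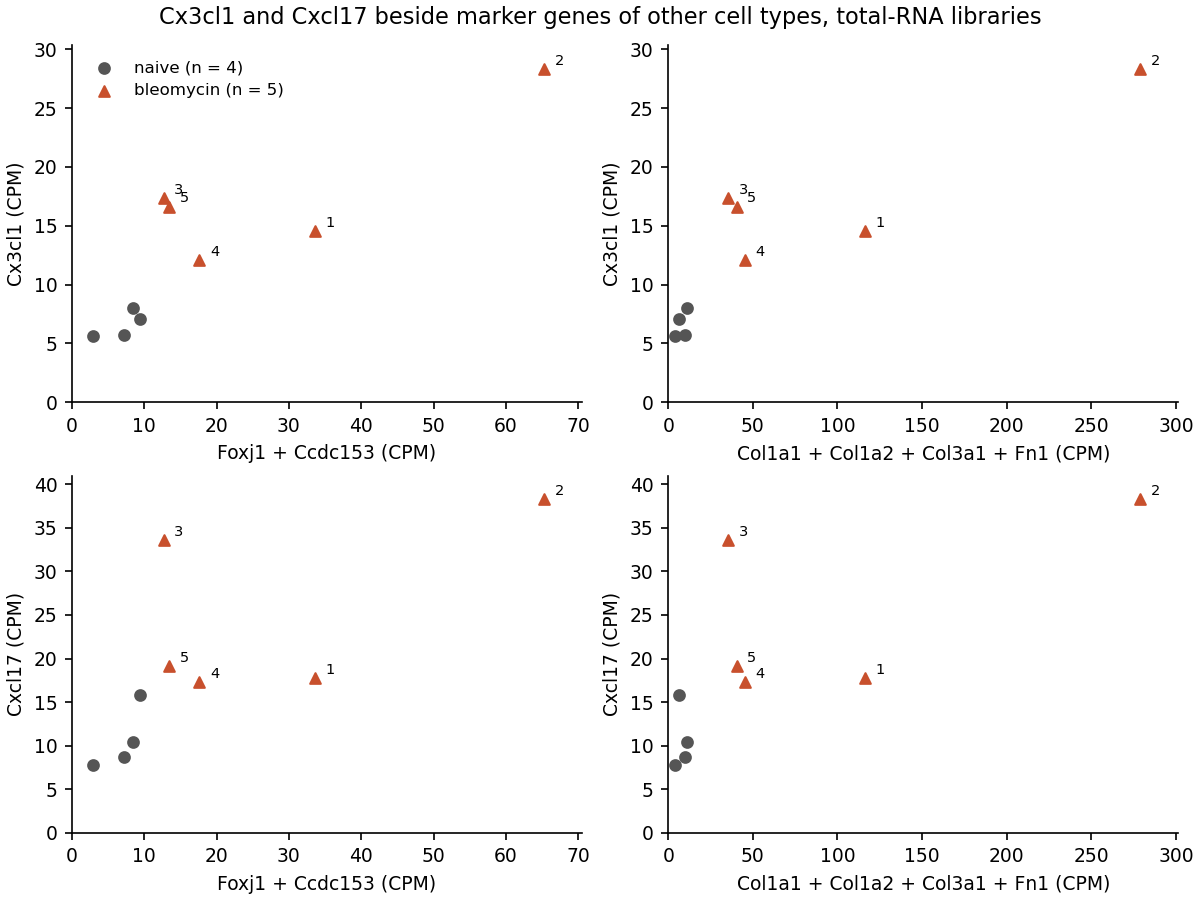
CPM of Cx3cl1 (top) and Cxcl17 (bottom) in each total-RNA library against the summed CPM of the ciliated markers Foxj1 and Ccdc153 (left) and of Col1a1, Col1a2, Col3a1 and Fn1 (right), for 4 naive and 5 numbered bleomycin libraries. Bleomycin 2 is highest on every axis, and bleomycin 3, at 12.7 CPM of the ciliated markers, is second for both chemokine genes.

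ISRIB was compared with vehicle to see what it changed in AT2 cells of uninjured mice after 24 h. None of the 9 chemokine genes passed the test. Of the 5 with enough counts, 0 were called by edgeR, and 0 had an unadjusted p under 0.05, against 2.20% of the 12054 genes tested that were called (1.10% in each direction) and 1934 genes at an unadjusted p under 0.05. DESeq2 called none of Cxcl16, Cxcl17 and Cx3cl1, and gave Cxcl1 and Cxcl5 no adjusted p. No group was separated from the other for these 5 genes, as against 8.65% of all genes tested. Their median log2 fold change was 0.04, beside -0.00014 over all genes tested.

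For the 3 abundant genes the groups differed by less than their spread. Cxcl16 was at 46.6, 47.9, 51.7 and 50.5 CPM in vehicle 1 to 4 and 48.0, 45.7, 55.5 and 54.7 CPM in ISRIB 1 to 4, which gave a log2 difference of 0.05 (SE 0.07, edgeR adjusted p 0.820). Cx3cl1 was at 19.8, 19.1, 18.4 and 16.2 CPM in the vehicle and 17.3, 19.9, 14.8 and 18.7 CPM in the ISRIB libraries, a change of -0.06 (SE 0.10, adjusted p 0.858). The groups overlapped for both, and the SE of each change was near 0.10 on the log2 scale or below.

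Cxcl17 was nearly constant among the vehicle libraries, at 27.7, 28.9, 29.3 and 29.2 CPM, and spread over 27.6, 30.0, 23.9 and 37.3 CPM in ISRIB 1 to 4. The log2 fold change of the means was 0.04 (SE 0.11, edgeR adjusted p 0.894), and the ISRIB libraries lay on both sides of the vehicle libraries. Their chi-squared statistic per degree of freedom, which is 1 for counting error alone, was 0.10 in the vehicle and 13.5 in the ISRIB libraries, with no test of the difference. Only ISRIB 4 lay well above the vehicle libraries in Cxcl17, since ISRIB 2, at 30.0 CPM, was close to vehicle 3 at 29.3 CPM. ISRIB 2 and ISRIB 4 had the highest levels of the lysozyme gene Lyz1 (3564 and 3946 CPM, against 1972 to 2335 CPM in the other 6). Lyz1 carried nearly the whole sum of the macrophage and monocyte list, which without it was 47.8 and 52.4 CPM in these libraries and 35.2 to 45.7 CPM in the others, with C1qa at 0 counts in all 8. They had the lowest airway sums (3301 and 2387 CPM, against 3844 to 4299 CPM). The part of either in the spread of Cxcl17 was not tested.

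The neutrophil-attracting genes were low in both groups. Cxcl1 was at 3.33, 1.63, 1.31 and 1.26 CPM in vehicle 1 to 4 and 0.89, 1.602, 1.61 and 1.23 CPM in ISRIB 1 to 4. Its log2 fold change of -0.50 (SE 0.35, edgeR adjusted p 0.522) rested on vehicle 1, and was -0.09 (adjusted p 0.95) without it. Cxcl5 was at 1.14, 1.36, 0.85 and 0.87 CPM in the vehicle and 0.70, 2.48, 1.07 and 1.40 CPM in the ISRIB libraries. Its log2 fold change was 0.41 (SE 0.39, edgeR adjusted p 0.661), and -0.02 without ISRIB 2.

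Counts were too few to test the other 4 genes. Cxcl2 had 32 counts in all vehicle and 22 in all ISRIB libraries, a ratio of 0.66 (exact 95% interval 0.36 to 1.17). Cxcl10 had 4 and 10 counts, a ratio of 2.39 (0.69 to 10.4), and its exons overlap those of Art3 on the opposite strand by 133 bases, a gene with 2 and 1 counts. Ccl20 had 20 and 22 counts, a ratio of 1.05 (0.55 to 2.03). Each of these intervals included 1. Ccl2 had 0 counts in all 8 libraries, which allows up to 0.0621 CPM in the vehicle and 0.0594 CPM in the ISRIB group (3 counts over the group).

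The neighbours of these genes on the chromosome were mostly as low. From Cxcl5 to Cxcl2 the chromosome 5 cluster also holds Ppbp, Pf4, Cxcl3 and Cxcl15, and only Cxcl15, a chemokine gene of lung epithelium, was abundant. Cxcl15 was at 9436 ± 192 CPM in vehicle, 10290 ± 1001 CPM in ISRIB and 4597 ± 369 CPM in naive libraries (SD, n = 4 each), and at 4193 ± 947 CPM in bleomycin libraries (SD, n = 5). It was not called after ISRIB (log2 fold change 0.12, SE 0.06, edgeR adjusted p 0.347) or after bleomycin (-0.13, SE 0.16, adjusted p 0.602). Cxcl15 exceeded the sum of the 9 genes 61.8 to 75.9 times in naive and 26.8 to 54.3 times in bleomycin libraries. On chromosome 11 the neighbours of Ccl2 (Ccl7, Ccl11, Ccl12, Ccl8 and Ccl1) had 1 count in all 17 libraries together.

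Of 26 other chemokine ligand genes, 5 were tested after ISRIB and 2 after bleomycin, and none was called. The following were singled out among the untested genes after their values were seen. Cxcl3, another CXCR2 ligand, had 13 counts in naive and 91 in bleomycin libraries, a ratio of 4.17 (exact 95% interval 2.32 to 8.13), and 3.10 (1.66 to 6.19) without bleomycin 2. Every bleomycin library (1.86 to 6.86 CPM) lay above every naive library (0.34 to 1.49 CPM). Cxcl12, the ligand of CXCR4, had 9 and 109 counts, a ratio of 7.21 (3.66 to 16.2), and 4.81 (2.38 to 11.01) without bleomycin 4. It is also made by stromal and endothelial cells, and the marker values given above were the only ones set beside it.

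Of 22 chemokine receptor genes 3 were tested after ISRIB, with 0 called, and 0 were tested after bleomycin. AT2 cells carried few reads of most receptors for the members. Cxcr1 and Cxcr2 had 0 counts in all poly(A) libraries and 1 count each in the total-RNA set. Cxcr6 had 3 counts in the poly(A) set and 0 in all total-RNA libraries. Ccr6, the receptor of CCL20, was the receptor singled out after its values were seen. It had 59 counts in naive and 30 in bleomycin libraries, a ratio of 0.30 (0.19 to 0.48), at 2.38 to 5.34 CPM in naive and 0.31 to 2.17 CPM in bleomycin libraries, without overlap. In the poly(A) set Ccr6 was at 6.07 ± 1.94 CPM in vehicle and 4.42 ± 0.87 CPM in ISRIB libraries (SD, n = 4 each). After ISRIB its log2 fold change was -0.43 (SE 0.22, edgeR adjusted p 0.351).

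Receptors and adaptors that induce chemokines mostly did not pass the test after bleomycin: of 25 genes 23 were tested, 5 rose and 1 fell (median log2 fold change 0.18). Over all genes tested 11.2% rose and 9.31% fell, with a median of 0.0026. Ifngr2, a chain of the interferon-gamma receptor, rose from 18.9 ± 4.66 to 35.9 ± 8.31 CPM (SD, n = 4 and 5), or 0.93 on the log2 scale (SE 0.21, edgeR adjusted p 0.00395). Osmr, the oncostatin M receptor, rose by 0.50 (adjusted p 0.00606). Tnfrsf21, a death receptor of the tumour necrosis factor family, rose by 2.88 (SE 0.68, adjusted p 0.00523) from 0.77 CPM. No naive library reached the filter's level of 2.57 CPM for Tnfrsf21, so that it was tested only because the bleomycin libraries were high, which favours a rise. The adaptor gene Myd88 (0.50, adjusted p 0.0281) and Ifnar1, a chain of the type I interferon receptor (0.42, adjusted p 0.0380), also passed. Tlr4, the receptor for bacterial lipopolysaccharide, fell by 0.73 (adjusted p 0.0230). The calls of Myd88 and Ifnar1 were lost when any 1 naive library or bleomycin 3 was left out, and that of Ifnar1 also without bleomycin 2, with adjusted p up to 0.0805 and 0.116. Without a filter on low counts that of Ifnar1 was lost too (adjusted p 0.082). The call of Tlr4 was lost without naive 1, 2 or 4, with adjusted p up to 0.067, and was 0.0845 without bleomycin 1 and 2 together.

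Among 17 transcription factor genes that act on chemokine promoters, all tested, 3 rose and 3 fell after bleomycin (median 0.15), against 20.5% of all genes tested that were called. Fos and Jun, which form AP-1, fell by 0.95 (edgeR adjusted p 0.000381) and by 0.86 (adjusted p 0.000286). Nfkbiz, an NF-kappaB cofactor, fell by 0.93 (adjusted p 0.000733). Irf7, an interferon regulatory factor, rose by 2.27 (SE 0.52, adjusted p 0.00453) between group means of 1.18 and 5.61 CPM. Like Tnfrsf21, Irf7 was tested only because it was high in the bleomycin libraries, since no naive library reached 2.57 CPM. Irf9 rose by 0.56 (adjusted p 0.0282) and Nfkb2 rose by 0.51 (adjusted p 0.0270). The calls of Irf9 and Nfkb2 were lost without naive 1, 2 or 4, that of Irf9 also without bleomycin 2 or 5, and that of Nfkb2 without bleomycin 1, with adjusted p up to 0.101 and 0.109.

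The same list held the only calls of the main edgeR fit after ISRIB among the lists of chemokine regulators. Of the 17 factors 2 rose after ISRIB, against 1.10% of all genes tested. These were Jun, by 0.40 (SE 0.08, edgeR adjusted p 0.0137), and Cebpd, a C/EBP factor, by 0.37 (SE 0.09, adjusted p 0.0319). With DESeq2, 2 of the 17 were called higher and 1 lower. Over the alternatives, 0 to 3 were called higher and 0 to 1 lower. Jun was at 147 to 183 CPM in vehicle and 188 to 243 CPM in ISRIB libraries. The call of Jun was lost without vehicle 1 (adjusted p 0.0546), and that of Cebpd without vehicle 1 or 3 or ISRIB 3 or 4 (adjusted p up to 0.12).

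Genes that act on the stability of chemokine mRNA or restrain NF-kappaB, 12 in all and all tested, showed 2 rises and 1 fall after bleomycin (median 0.09; over all genes tested 11.2% rose and 9.31% fell). Tnfaip3, which encodes the NF-kappaB inhibitor A20, rose from 14.3 ± 2.23 to 25.2 ± 4.81 CPM (SD, n = 4 and 5), or 0.81 on the log2 scale (SE 0.20, edgeR adjusted p 0.00727). Arid5a, an mRNA-stabilising protein, rose by 0.80 (adjusted p 0.0380). Zfp36, which encodes the mRNA-decay protein tristetraprolin, fell by 0.54 (adjusted p 0.0163). The call of Zfp36 was lost without naive 2 (adjusted p 0.0719) or naive 4 (0.0984). That of Arid5a was lost when any 1 naive library or bleomycin 1, 3 or 4 was left out (adjusted p up to 0.13), and with limma-voom (0.0902). None of the 12 was called after ISRIB.

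Proteases that release membrane-anchored CX3CL1 and CXCL16, and their regulators, were 7 genes of which 6 were tested. After bleomycin 3 rose and 0 fell (median 0.33), against 11.2% of all genes tested that rose, and only 1 call, that of Adam10, held under every alternative. Adam10 rose from 80.3 ± 3.73 to 115 ± 14.9 CPM (SD, n = 4 and 5), or 0.52 on the log2 scale (SE 0.12, edgeR adjusted p 0.00454), and its groups did not overlap. Adam17 did not pass, at 0.26 on the log2 scale (SE 0.14, adjusted p 0.194). Bsg (0.40, adjusted p 0.0202) and Timp3, a metalloprotease inhibitor (0.64, adjusted p 0.0491), were the other calls. Neither encodes a protease that releases these chemokines, so the 3 rises were not read as a rise in release. The call of Bsg was lost without naive 1, 2 or 4 (adjusted p up to 0.0825). That of Timp3 was lost when any 1 naive library or bleomycin 1 or 2 was left out, and its log2 fold change was 0.12 (adjusted p 0.53) without both of those. With limma-voom its adjusted p was 0.117. No gene of the list was called after ISRIB.

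Of 16 other cytokine and acute-phase genes, 7 were tested in each experiment. After bleomycin 2 of the 7 rose (median 0.15), against 11.2% of all genes tested. Lcn2, which encodes the iron-binding protein lipocalin 2, rose from 186 ± 22.4 to 1043 ± 309 CPM (SD, n = 4 and 5), or 2.49 on the log2 scale (SE 0.19, edgeR adjusted p 1.44e-07). Il33, an alarmin gene, rose by 0.58 (SE 0.14, adjusted p 0.00552). None of the 7 was called after ISRIB.

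**Figure D5:**
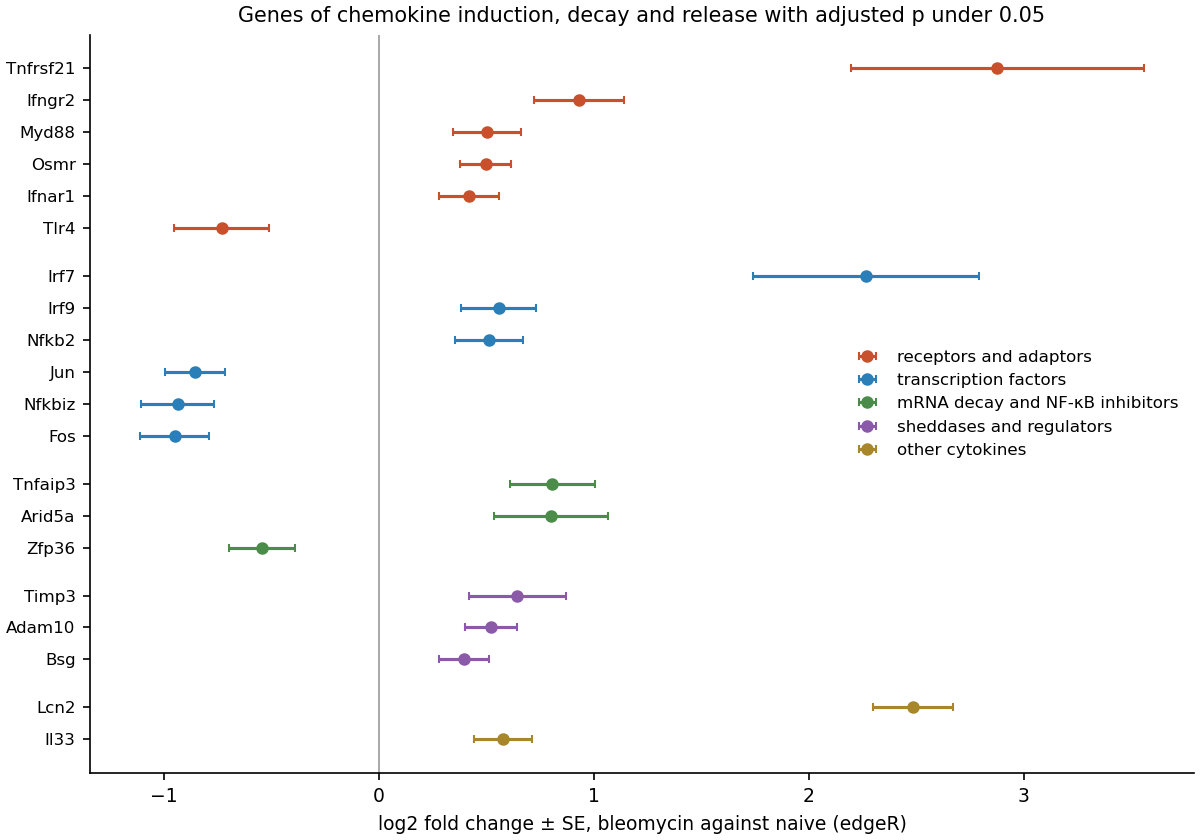
Log2 fold change with its SE, bleomycin against naive (edgeR), for the genes with an adjusted p under 0.05 in 5 lists: receptors and adaptors, transcription factors, mRNA decay and NF-kappaB inhibitors, sheddases and their regulators, and other cytokines. Tnfrsf21 (2.88), Lcn2 (2.49) and Irf7 (2.27) lie farthest to the right, and Fos, Nfkbiz, Jun, Tlr4 and Zfp36 lie below 0.

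The genes that varied most like a member within the groups were found from deviations of log2 CPM from the group mean, over the 17 libraries and 10736 genes tested in both sets. For Cxcl16 they were Wnk4 (Pearson r 0.79), S100pbp (0.79) and Mettl13 (0.79). For Cxcl17 they were Psmb6 (0.95), Accs (0.94) and Lgmn (0.92), and for Cxcl1 Rhod (0.97), Chek1 (0.89) and Tbc1d24 (0.86). Within the 8 poly(A) libraries r was 0.21, 0.64 and 0.40 for the 3 genes named with Cxcl16, 0.56, 0.54 and 0.67 for those with Cxcl17, and 0.82, 0.598 and 0.84 for those with Cxcl1. Within the 9 total-RNA libraries it was 0.95, 0.86 and 0.92, then 0.98, 0.98 and 0.95, and 0.997, 0.93 and 0.86. These are the extremes of many genes and are given without a test.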

How the data were processed

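The deposited values were raw read counts per gene in 1 table per kit, whole numbers that were not pooled over replicates. Per the submitters' processing notes, bcl2fastq 2.19.1, FastQC, Trimmomatic 0.36, STAR 2.6.0 and HTSeq 0.11.2 were used with the build mm10. For the annotation and the strand setting of the counting, the sources used here name nothing. Symbols and positions came from GENCODE M21 (GRCm38), which named 42546 of 43430 IDs.

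Members and gene lists were chosen with earlier results of these data known. Each set was passed through filterByExpr (at least 10 counts, at least 15 in total), scaled by TMM and tested by quasi-likelihood in edgeR 4.0.16 (F test, two-sided; R 4.3.3), with Benjamini-Hochberg adjustment over all genes tested and a threshold of 0.05. CPM and fold changes use the library's filtered total times its TMM factor. The filter's level, ratios of summed counts and limits for a count of 0 use raw totals. SE is the log2 fold change over the root of F. Genes below the filter got a ratio of summed counts with an exact 95% interval. The procedure was tested on simulated data. All members were named, as were up to 5 called genes per list and direction. For likeness, a pseudocount of 0.5 CPM was added. Alternatives were DESeq2 1.42.0, its size factors, limma-voom (limma 3.58.1), no filter, leaving out rRNA-like and mitochondrial genes, a replicate block and leaving out each library.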

Additional observations from a re-analysis of the deposited data

Results flagged for a closer look

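In 33 groups of values of the 9 genes, a library far from the rest of its group was found in 3, by Dixon's ratio of gap to range. For normally spread values chance gives about 1 in 20, a rate that does not hold for counts as low as in these 3. Cxcl5 was at 4.33 CPM (14 counts) in bleomycin 4, against 0 to 1.08 CPM in the other bleomycin libraries. Cxcl10 was at 2.12 CPM (8 counts) in bleomycin 1 and at 0 in the other 4. Ccl2 was at 0.18 CPM in bleomycin 2, which is 1 count, and at 0 in the other 4. In a group at 0, a single count is enough to stand apart.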

How the results depend on the processing

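Cx3cl1 and Cxcl17 kept their calls after bleomycin under all 16 alternatives run, with log2 fold changes of 1.21 to 1.54 and 1.04 to 1.51 and adjusted p up to 0.0072 and 0.0267. No other member was called under any alternative. The number of all genes called after bleomycin ran from 1554 to 2589. After ISRIB, 0 members were called under all 14 alternatives, while the number of all genes called moved from 265 to 408 with DESeq2, to 648 without a filter (more genes tested), and to 86 to 269 without single libraries (86 without vehicle 1, 102 without vehicle 2, 159 without ISRIB 4). Uncalled changes near 0 turned sign: Cxcl5 to -0.0165 without ISRIB 2, Cx3cl1 to 0.0189 without ISRIB 3 and Cxcl17 to -0.077 without ISRIB 4. Leaving out single libraries gave ranges of -0.0165 to 0.6689, -0.1181 to 0.0189 and -0.077 to 0.1327. The cause of these moves was not tested. Without a filter after bleomycin, Cxcl12 (adjusted p 0.00059) and Cxcl3 (0.0448) were called, Ccr6 (0.0667) and Cxcl5 (0.234) were not. When naive 4 or bleomycin 4 was left out, 1 chemokine receptor gene entered the test and was called lower. Without naive 1, without naive 3 or without bleomycin 1 and 2 together, 1 receptor gene also entered the test and was not called. When naive 1, 3 or 4 was left out, 1 of the 4 other chemokine ligand genes then tested was called higher, and 0 of 4 without naive 2. Same-numbered libraries correlated by -0.11 to 0.08 (ISRIB) and -0.04 to 0.05 (bleomycin), so the numbers were not taken as pairs. With the replicate block, which drops bleomycin 5, 277 genes were called after ISRIB and 2099 after bleomycin, with 0 and 2 members called, and Irf9, Ifnar1 and Nfkb2 lost their bleomycin calls. In the total-RNA set, depth left 5 of 9 members untested.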
